A study of Mus musculus with 9 samples.

Results

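The interferon-inducible GTPase genes were followed on 9 oligonucleotide arrays of mouse lung. They were chosen by name, as Gbp2b, Gbp2, Gbp3, Gbp4, Gbp6, Gbp7, Irgm1, Irgm2, Igtp and Iigp1, because Gbp2b had been seen to be high only in SV129 lung. Probe sets were used where the platform's annotation gave a single symbol. This left 13 probe sets for 9 of the 10 genes, out of 18193 genes with such a probe set. Gbp4 shares its probe set with Gbp8 in the annotation, so it was given no value. All 13 probe sets passed the filter on dim signals, which kept 27022 probe sets. Gbp2b passed through its level in SV129 alone, since its mean over the other 6 arrays, 5.46, lay under the filter level of 6.13.

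SV129, BL6 (C57/BL6) and FVB/N mice, 3 inbred strains, had been kept for 4 weeks either at 50 kPa in a hypobaric chamber, here called hypoxia, with 2 arrays for each strain, or at the pressure of Denver, 85 kPa, here called normoxia, with 1 array for each strain. RNA came from whole homogenised right lung. The labels give no age, sex, transgene or drug, and do not say that arrays came from separate animals. The p-values then reflect no more than how these arrays vary among themselves, which may be a technical spread, and the number of arrays limits the precision. Levels below are log2(signal + 16) after quantile normalization, from the authors' linear signal values, and fold changes are on that scale.

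Guanylate-binding proteins (GBPs) and immunity-related GTPases (IRGs) are among the proteins most strongly induced by interferon gamma in mouse cells. They bind GTP, assemble on the vacuoles of intracellular parasites and bacteria, and help to break these membranes open. Some IRGs, Irgm1, Irgm2 and Igtp among them, sit on the cell's own membranes and hold the effector GTPases such as Iigp1 inactive there. Their promoters are known to carry the interferon-stimulated response element (ISRE) and, in part, the gamma-activated site (GAS). Inbred strains are known to differ in these gene families.

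Promoter windows from RefSeq (GRCm38.p6, 250 bases before to 50 after a gene's start) were used for 7 of the 10 genes. Symbol was not the only rule, since windows on the chromosome of Iigp1 were not used. Gbp4 and Gbp6 had no window either, so motifs were not searched for in these genes or in Iigp1. The windows used are of the C57BL/6J reference, not of SV129 or FVB/N. The windows of 4 genes are shown because the results turn on them. Gbp2b and Gbp2 are next to each other on chromosome 3 and went opposite ways between strains, and Gbp7 has a probe set that rose in hypoxia over the strains, while Irgm2 rose in FVB/N, against 1 normoxic array. Capitals mark the ISRE core, a pair of GAAA runs with any 2 bases between them, searched on both strands.
Gbp2b, chr3:142594597-142594896, plus strand: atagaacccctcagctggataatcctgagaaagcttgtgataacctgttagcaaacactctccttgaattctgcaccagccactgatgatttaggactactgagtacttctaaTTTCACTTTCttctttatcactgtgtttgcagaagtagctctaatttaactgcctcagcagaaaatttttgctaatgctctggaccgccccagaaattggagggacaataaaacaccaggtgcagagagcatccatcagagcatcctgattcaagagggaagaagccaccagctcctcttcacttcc
Gbp2, chr3:142620413-142620712, plus strand: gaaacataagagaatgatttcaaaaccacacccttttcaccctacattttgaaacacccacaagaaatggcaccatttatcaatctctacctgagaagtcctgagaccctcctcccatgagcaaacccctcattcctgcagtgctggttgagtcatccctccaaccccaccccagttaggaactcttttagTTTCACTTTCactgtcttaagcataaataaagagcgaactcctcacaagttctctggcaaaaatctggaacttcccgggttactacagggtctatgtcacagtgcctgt
Gbp7, chr3:142530086-142530385, plus strand: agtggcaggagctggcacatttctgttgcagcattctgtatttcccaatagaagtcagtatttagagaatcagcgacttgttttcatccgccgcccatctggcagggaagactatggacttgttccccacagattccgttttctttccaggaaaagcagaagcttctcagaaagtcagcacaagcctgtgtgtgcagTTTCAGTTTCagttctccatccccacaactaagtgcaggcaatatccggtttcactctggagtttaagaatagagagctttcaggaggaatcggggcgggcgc
Irgm2, chr11:58214727-58215026, plus strand: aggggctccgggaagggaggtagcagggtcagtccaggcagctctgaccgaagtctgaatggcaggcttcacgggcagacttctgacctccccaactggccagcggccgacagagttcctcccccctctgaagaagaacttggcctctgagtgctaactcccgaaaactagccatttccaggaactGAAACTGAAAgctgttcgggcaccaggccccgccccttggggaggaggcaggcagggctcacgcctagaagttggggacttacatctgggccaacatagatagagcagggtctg

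The ISRE core was found in all 7 genes whose windows were used (in 7 of 8 windows, since Gbp3 has a second one without it). It was found in 3.44% of 32851 promoter windows of the same length. Gbp2b and Gbp2 held the same 10 bases, TTTCACTTTC, with the first base 137 bases before the start in Gbp2b and 59 bases before it in Gbp2. Gbp7 held TTTCAGTTTC, with its first base 53 bases before the start. Irgm2 and Igtp, which are next to each other on chromosome 11, both held GAAACTGAAA, and their windows were identical at 73.5% of 336 aligned positions. In Gbp3 and Irgm1 a pair of overlapping matches was found. The GAS pattern TTCNNNGAA, which does not overlap these matches, was found in 3 of the 7 genes, Gbp7, Irgm2 and Igtp, against 8.3% of the windows. A match describes these letters only, and the Gbp2b window has an ISRE match as the others do.

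Gbp2b, also known as mouse Gbp1, was high on the SV129 arrays and near the bottom of the signal range on all others. The values of this paragraph chose the set, so they are given as a description with no test. Its signal was 1059.7 and 1256 on the hypoxic SV129 arrays and 1245 on the normoxic SV129 array. In BL6 it was 42.7 and 33.4 hypoxic and 45.2 normoxic, and in FVB/N 21.0 and 6.71 hypoxic and 32.5 normoxic. The groups do not overlap, and the gap between the lowest SV129 array and the highest other array was 4.19 on the log2 scale. The mean log2 level was 10.23 ± 0.13 in SV129, 5.82 ± 0.09 in BL6 and 5.11 ± 0.51 in FVB/N (SD, n = 3 each), and SV129 lay 4.77 above the mean of the other strains. The size of that difference depends on the pseudocount, since the signals in BL6 and FVB/N are so low: it was 5.44 with a pseudocount of 1 and 3.74 with 64. Among all probe sets that are not controls, 84.6% to 86.7% were dimmer than Gbp2b on the SV129 arrays, against 10.7% to 34.6% on the other arrays. The difference was there under both pressures, at 4.85 among the hypoxic arrays and 4.60 among the normoxic ones. In whole lung, fewer cells of a type and less RNA per cell cannot be told apart.

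**Figure D1:**
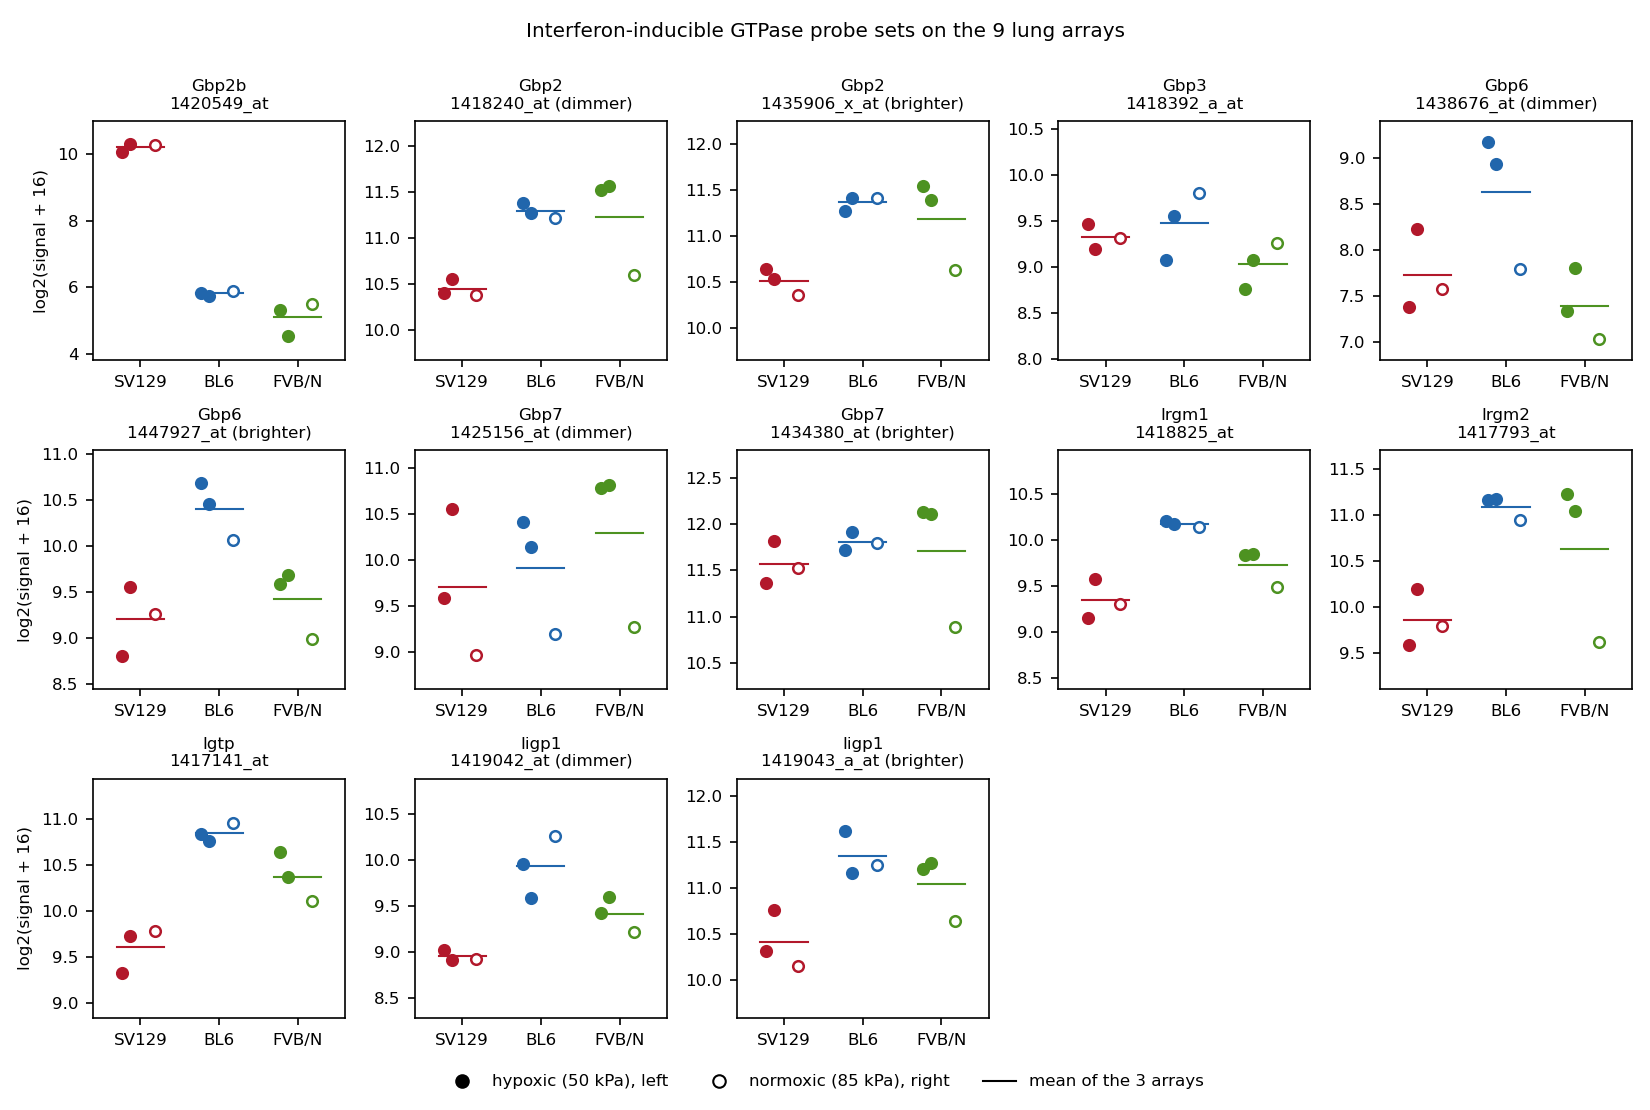
Levels of the 13 probe sets, one panel each, as log2(signal + 16) after quantile normalization for SV129, BL6 and FVB/N lung, with hypoxic arrays filled, the normoxic array open and the strain mean as a line. The Gbp2b panel spans a wider range than the others; SV129 lies near 10.23 there, and the other strains at 5.89 or below.

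On 10 of the 13 probe sets the SV129 mean was the lowest of the 3 strain means, against 33.2% of all probe sets; the exceptions were Gbp2b, Gbp3 and the dimmer probe set of Gbp6. The strain contrast with SV129 is the one the set was chosen on, so these levels too are a description with no test. Of the 13 probe sets 1, Gbp2b, had all SV129 arrays above all others, as did 4.13% of the 27022 probe sets. On 3 probe sets, 1 each of Gbp2, Igtp and Iigp1, all SV129 arrays lay below all others, as on 3.3% of all probe sets. That count was 5 without hypoxic SV129 array 5 and 8 without the normoxic FVB/N array. Among the hypoxic arrays alone, both SV129 arrays lay below the 4 others on 8 of the 13, against 10.5% of all probe sets. Markers of T and NK cells, which make interferon gamma, were also mostly lower in SV129. Of 11 markers 10 had a difference below 0 between SV129 and the mean of the other strains, with a median of -0.48. Cd4 went the other way (0.36). The mean log2 level of the list was 8.05 on the normoxic SV129 array, above every BL6 array and the normoxic FVB/N array (7.83). The list's median difference for BL6 minus FVB/N was -0.56, against 0.45 over the 12 GTPase probe sets without Gbp2b. On 2 of the 11 markers, Nkg7 (-1.44) and Prf1 (-0.82), genes of cytotoxic granules, all SV129 arrays were below the others. The part of these cells in the SV129 levels was not tested.

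The regulatory IRGs and Iigp1 were lower in SV129 by 0.61 to 1.00 on the log2 scale against the mean of the other strains, and Igtp by 1.24 against BL6 alone. Igtp (also Irgm3), which guards host membranes, had levels of 9.32 and 9.72 on hypoxic and 9.78 on normoxic SV129 arrays. Its levels were 10.83, 10.76 and 10.95 in BL6 and 10.64, 10.37 and 10.10 in FVB/N, in each case with the normoxic array last. All 3 SV129 arrays were below every other array. Irgm2 averaged 9.86 ± 0.31 in SV129, 11.09 ± 0.13 in BL6 and 10.63 ± 0.88 in FVB/N (SD, n = 3 each), and its SV129 range held the normoxic FVB/N array, at 9.63. Irgm1, needed for resistance to mycobacteria in mice, averaged 9.34 ± 0.22 in SV129, 10.17 ± 0.03 in BL6 and 9.72 ± 0.20 in FVB/N (SD, n = 3 each). Iigp1 (Irga6), an effector that coats parasite vacuoles, averaged 8.96 ± 0.06 in SV129, 9.94 ± 0.34 in BL6 and 9.42 ± 0.19 in FVB/N on its _at probe set (SD, n = 3 each). Its _a_at probe set had SV129 0.78 below the mean of the other strains. For Irgm1 the order of strain means was SV129, FVB/N and BL6 from low to high, with no overlap between BL6 and FVB/N arrays.

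The GBPs next to Gbp2b did not share its pattern. Gbp7, Gbp3, Gbp2b and Gbp2 follow each other on chromosome 3 in the RefSeq gene table. Gbp2, an effector GBP of vacuoles and bacteria, had levels of 10.40 and 10.56 on hypoxic and 10.37 on normoxic SV129 arrays, on the _at probe set. There BL6 had 11.38 and 11.27 hypoxic and 11.21 normoxic, and FVB/N 11.52 and 11.56 hypoxic and 10.60 normoxic. The SV129 arrays were the lowest, by a gap of 0.04 to the normoxic FVB/N array. The other Gbp2 probe set, _x_at, a suffix for probes that can match further transcripts, followed it with r = 0.96 over the 9 arrays, and its SV129 and FVB/N arrays overlapped.

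Gbp3, on the other side of Gbp2b, averaged 9.33 ± 0.13 in SV129, 9.48 ± 0.37 in BL6 and 9.04 ± 0.25 in FVB/N, and these strains overlapped (SD, n = 3 each). The brighter Gbp7 probe set averaged 11.57 ± 0.23 in SV129, 11.81 ± 0.10 in BL6 and 11.71 ± 0.72 in FVB/N (SD, n = 3 each), again with overlap. Over the 9 arrays the Pearson correlation of Gbp2b with the 12 other probe sets ran from -0.84 (Gbp2) to 0.19 (Gbp3), with a median of -0.70. Among the 12 others the median over 66 pairs was 0.68, and 0.60 after the strain means were taken out. These points share arrays and strains, so the correlations are descriptions only.

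The 6 genes most like Gbp2b, of 12894 others ranked by their brightest probe set, were Jrk, BC018473, Tusc1, Tlcd2, Arsj and 9430038I01Rik, with Pearson r of 0.96 to 0.99 over 9 arrays. None of them is a GTPase of this family by its name or belongs to the interferon lists used here. BC018473 differed most between strains among the 6, at 9.97 ± 0.24 in SV129 (SD, n = 3), against 4.22 to 4.40 on the other 6 arrays. Jrk had the highest r and a difference of 1.08 between SV129 and the mean of the other strains.

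BL6 and FVB/N were compared next, the strain contrast without SV129. Gbp2b, which passed the filter through SV129 and was near the bottom of the signal range in both of these strains, was left out of the counts. Of the 12 other probe sets 11 had a difference above 0, BL6 minus FVB/N, against 48.5% of all probe sets, but 0 passed limma's test at an adjusted p below 0.05 with Benjamini-Hochberg adjustment over all probe sets, where 2.07% of all probe sets passed. At an unadjusted p below 0.05 there were 5 of 12, against 11.9% of all. On 3 of 12 all BL6 arrays lay above all FVB/N arrays (8.37% of all probe sets), on the brighter probe set of Gbp6, on Irgm1 and on Igtp. The median difference over the 12 was 0.45, against -0.01 over all probe sets. Without both arrays with kidney transcripts the differences of Gbp2 on its _at probe set (-0.25) and Gbp7 on its brighter one (-0.22) turned below 0, and that of Irgm2 was -0.000294.

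The largest differences among the 12 were those of Gbp6, a GBP from the gene cluster on chromosome 5. On its brighter probe set the levels were 10.69 and 10.46 hypoxic and 10.06 normoxic in BL6, against 9.59 and 9.69 hypoxic and 8.98 normoxic in FVB/N. The strains did not overlap, and the difference was 0.98 ± 0.240 (SE, limma, adjusted p = 0.0849). On the dimmer one they were 9.17, 8.93 and 7.79 in BL6 and 7.33, 7.80 and 7.03 in FVB/N, with the normoxic array last in each. There the normoxic BL6 array fell just under the highest FVB/N array, and the difference was 1.24 ± 0.302 (SE, limma, adjusted p = 0.083). Without hypoxic SV129 array 2 both Gbp6 probe sets passed (adjusted p = 0.0223 and 0.0429). Over all settings tried the adjusted p ran from 0.00976 to 0.508 for the first and from 0.00641 to 0.377 for the second.

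Igtp (0.48 ± 0.196, adjusted p = 0.365), Irgm1 (0.45 ± 0.170, adjusted p = 0.309) and Iigp1 (0.52 ± 0.205 on the _at probe set, adjusted p = 0.339) had differences in the same direction that did not pass in limma (SE). In the same contrast 5 of 12 macrophage and dendritic cell markers were called higher in BL6, against 1.52% of all probe sets, and 0 were called lower. Chil3 (2.13) and Marco (2.51) were among the 5. Of the markers not called, Itgae had a difference of -0.61 and Flt3 one of -0.000212. The mean log2 level of that list was 9.78 to 10.16 in BL6 and 9.01 to 9.17 in FVB/N. The part of these cells in the differences of Gbp6 was not tested.

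Hypoxia over the 3 strains was tested with the strain as a covariate. Gbp7 rose, on 1 of its 2 probe sets, and it was the single call among the 13; 1.94% of all probe sets rose, and 3.76% were called in either direction. On the dimmer probe set its levels were 9.59 and 10.56 on hypoxic arrays and 8.97 on the normoxic array in SV129. In BL6 they were 10.41 and 10.14 hypoxic and 9.20 normoxic, and in FVB/N 10.78 and 10.82 hypoxic and 9.28 normoxic. All 6 hypoxic arrays were above all 3 normoxic arrays of any strain. The mean was 10.38 ± 0.46 (SD, n = 6) in hypoxic and 9.15 ± 0.16 (SD, n = 3) in normoxic lung, a 2.35-fold rise (log2 change 1.23 ± 0.215, SE, limma, adjusted p = 0.0228).

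The brighter Gbp7 probe set did not give the same picture. Its levels were 11.37 and 11.82 hypoxic and 11.53 normoxic in SV129, 11.72 and 11.91 hypoxic and 11.80 normoxic in BL6, and 12.14 and 12.11 hypoxic and 10.88 normoxic in FVB/N. In SV129 and BL6 the normoxic array lay between the hypoxic ones. The change over strains was 0.44 ± 0.227 (SE, limma, adjusted p = 0.287), and the mean of both probe sets changed by 0.84 ± 0.204 (SE, limma, adjusted p = 0.100). The call of the dimmer probe set was lost without hypoxic BL6 array 5 (adjusted p = 0.0716), hypoxic FVB/N array 2 (0.058) or 6 (0.0603), the normoxic BL6 array (0.0993), the normoxic SV129 array (0.107), or both arrays with kidney transcripts (0.129), while the change stayed between 1.03 and 1.38 in all 21 settings.

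The other members did not pass for hypoxia over strains. In all, 9 of 13 probe sets had a change above 0, against 53.8% of all probe sets, and the median change was 0.36, against 0.04 over all. Gbp2 had all 6 hypoxic arrays above the normoxic array of their strain on the _at probe set, as did Gbp7 on the dimmer one and 14.5% of all probe sets, and its change was 0.38 ± 0.171 (SE, limma, adjusted p = 0.227). The opposite, all 6 hypoxic arrays below, was seen on 0 of the 13, against 8.77% of all probe sets. Irgm2 had a change of 0.61 ± 0.261 (adjusted p = 0.211) and Gbp6 one of 0.68 ± 0.261 on its dimmer probe set (adjusted p = 0.170; SE, limma). Without the normoxic FVB/N array the changes were 0.16 for Irgm2, 0.10 for Gbp2 on the _at probe set and 0.08 on the _x_at one, 0.21 for Gbp6 on its brighter probe set and 0.045 for Gbp7 on its brighter one. Without the normoxic BL6 array that of Gbp6 on its dimmer probe set was 0.39. Igtp stood at 0.00 ± 0.170 (SE, limma, adjusted p = 0.996). For Gbp2b the change, -0.25, is given as a description. It passed the filter through SV129 alone, and its signal in BL6 and FVB/N was near the bottom of the range. Its change was -0.09 in SV129, -0.11 in BL6 and -0.56 in FVB/N. Gbp2b stays in the counts of 13 for hypoxia and adds no call to them.

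Within strains, 3 of the 13 probe sets rose in FVB/N by limma's test, in which the 1 normoxic array of the strain is assumed to vary like the hypoxic pairs, where 2.95% of all probe sets rose, 3.85% fell and 6.8% were called in either direction. At an unadjusted p below 0.05 there were 5, against 26.1% of all probe sets. Irgm2 had levels of 11.23 and 11.04 on the hypoxic FVB/N arrays, against 9.63 on the normoxic FVB/N array, 2.85-fold higher (log2 change 1.51 ± 0.282, SE, limma, adjusted p = 0.0317). Gbp7 rose 2.37-fold on its brighter probe set (1.25 ± 0.229, SE, limma, adjusted p = 0.0306). Gbp2 rose 1.92-fold on its _at probe set (0.94 ± 0.197, SE, limma, adjusted p = 0.0393), with 0.83 ± 0.200 on its _x_at probe set (adjusted p = 0.0522). Both hypoxic FVB/N arrays lay above the normoxic one on 11 of 13 probe sets, all but Gbp2b and Gbp3, against 51.4% of all probe sets.

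The normoxic FVB/N array, on which these 3 calls rest, stood apart from the others. On it, 13 kidney markers averaged a log2 level of 12.71, and on hypoxic BL6 array 2 they averaged 11.72, against 6.14 to 6.57 on the 7 other arrays. A list of 8 brown fat and fast muscle markers had a mean of 9.72 there and of 5.87 to 6.51 on the 8 others. Muscle genes carried this rise, with Acta1 and Tnnt3 changing by -6.39 and -6.38 from normoxic to hypoxic FVB/N lung. The brown fat genes did not share it: Ucp1 averaged 4.65 ± 0.24 and Cidea 4.62 ± 0.42 in FVB/N (SD, n = 3 each). The normoxic FVB/N array also had the lowest mean of 11 lung markers, 12.85, where the others had 12.99 to 13.47. The part of this admixture in the FVB/N values was not tested, and without that array FVB/N has no normoxic array to compare with. The calls were lost without hypoxic FVB/N array 2 (adjusted p = 0.15 to 0.163) or 6 (0.141 to 0.162), and that of Gbp2 also without hypoxic BL6 array 2 (0.0729) or 5 (0.0689), while the changes kept within 0.92 and 1.60. All 3 were also lost in eBayes without the intensity trend (adjusted p = 0.0679 to 0.0878).

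**Figure D2:**
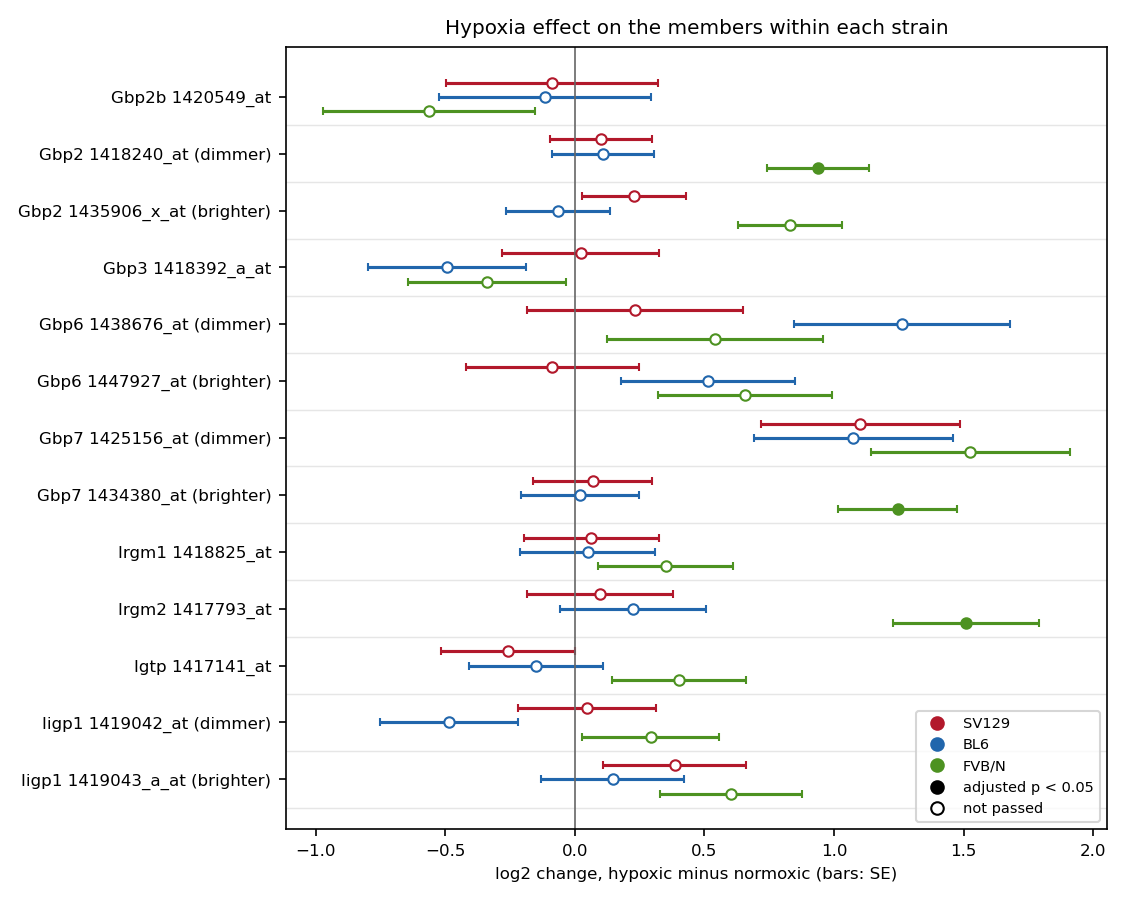
Log2 change, hypoxic minus normoxic, of each probe set in SV129, BL6 and FVB/N (points, with SE bars), filled where the adjusted p is below 0.05. The 3 filled points, Gbp2 (dimmer) at 0.94, Gbp7 (brighter) at 1.25 and Irgm2 at 1.51, are all FVB/N, and Gbp7 (dimmer) lies between 1.07 and 1.53 in every strain.

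In SV129 and BL6 0 of the 13 probe sets passed in limma, where 0% and 0.0148% of all probe sets passed. At an unadjusted p below 0.05 there was 1 in SV129 and there were 2 in BL6, against 7.58% and 12.5% of all probe sets. On its dimmer probe set Gbp7 changed by 1.10 ± 0.384 in SV129, 1.07 ± 0.384 in BL6 and 1.53 ± 0.384 in FVB/N (SE, limma, adjusted p = 0.565, 0.322 and 0.0569). Irgm2 changed by 0.10 ± 0.282 in SV129 and 0.22 ± 0.282 in BL6, and Gbp2 on its _at probe set by 0.10 ± 0.197 and 0.11 ± 0.197 (SE). Gbp6 stood at 1.26 ± 0.416 in BL6 on its dimmer probe set (SE, limma, adjusted p = 0.29). The effect of hypoxia was not shown to differ between strains. Of the 13 probe sets 0 passed limma's F test of the interaction, as did 0% of all, and 4 had an unadjusted p below 0.05 (12.3% of all): both of Gbp2 (adjusted p = 0.338 and 0.37), Gbp7 on its brighter one (adjusted p = 0.246) and Irgm2 (adjusted p = 0.275).

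The genes upstream and downstream of interferon gamma did not pass for hypoxia over the strains. Of 50 genes tested in 5 lists, 0 passed in limma and 9 had an unadjusted p below 0.05, a share to be read against 22.2% of all probe sets. The ligand genes Ifng and Ifnb1, at mean levels of 5.20 and 5.56, did not pass the filter. The 4 receptor genes tested had changes from -0.28 (Ifngr1) to 0.24 (Ifnar1). Among 13 signalling genes and transcription factors the median was 0.18, with Jak1, the kinase shared by interferon receptors, at 0.40 ± 0.121 (SE, limma, adjusted p = 0.0969) and Irf1, a factor that binds the ISRE, at 0.57 ± 0.205 (SE, limma, adjusted p = 0.147). The median was 0.14 over 18 other genes induced by interferon gamma, -0.12 over 5 other interferon-inducible GTPases and 0.08 over 10 genes of the ATG8 conjugation machinery, which is known to place these GTPases on membranes.

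In FVB/N alone, against its 1 normoxic array with kidney and muscle transcripts, 2 of the 13 signalling genes rose and 0 fell, where 2.95% of all probe sets rose. Irf1 rose 2.33-fold (1.22 ± 0.240, SE, limma, adjusted p = 0.0336), and Stat2, which joins Irf9 in the factor for the ISRE, 2.42-fold (1.27 ± 0.294, SE, limma, adjusted p = 0.0474). Neither passed the interaction test (adjusted p = 0.346 for Irf1 and 0.526 for Stat2). In the same contrast 2 of 11 lung markers rose as well, Tek (1.17, adjusted p = 0.0276) and Hopx (0.55, adjusted p = 0.035) in limma. Among 11 T and NK cell markers, 1 rose in FVB/N, the adhesion gene Cd2 (1.36 ± 0.269, SE, limma, adjusted p = 0.0343). All 11 had a change above 0, as had 9 of the 11 lung markers. Their median change was 0.85 for T and NK cells and 0.30 for lung, against 0.17 over all probe sets. The mean log2 level of the T and NK cell list was 8.62 and 8.85 on the hypoxic FVB/N arrays, against 7.83 on the normoxic FVB/N array. It was 7.54 to 8.05 in SV129, and the BL6 arrays lay inside that range. The part of these cells in the FVB/N values was not tested.

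**Figure D3:**
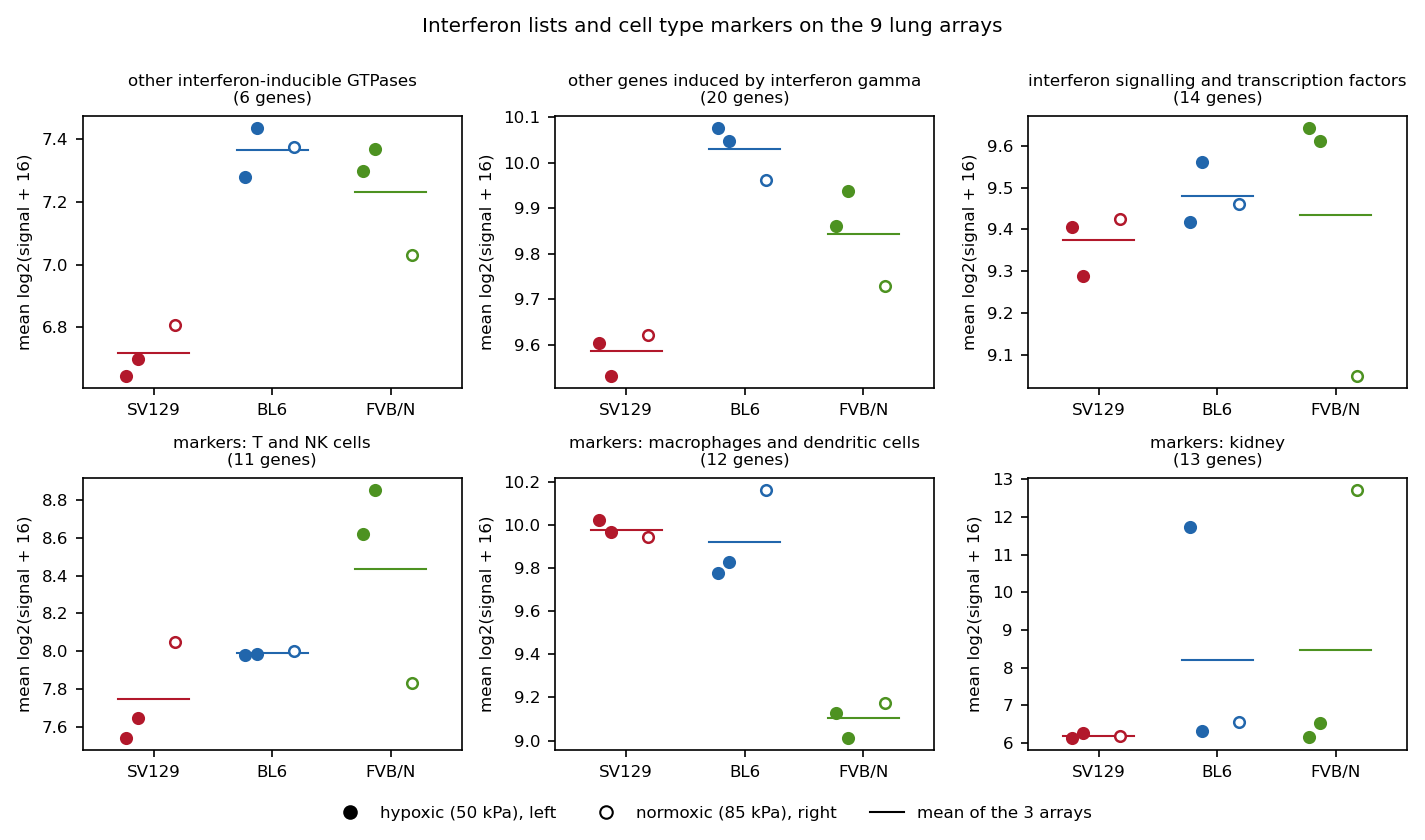
Mean log2(signal + 16) of 6 gene lists on the 9 arrays, hypoxic filled and normoxic open, with strain means as lines; each panel has its own axis. The mean of the 6 other GTPases lies at 6.64 to 6.81 in SV129, below both other strains, although Irgc1 among them is higher there. The mean of the kidney markers reaches 11.72 and 12.71 on an array each of BL6 and FVB/N.

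Other interferon-inducible GTPases that could be measured mostly had lower means in SV129 too, again as a description with no test. Of 14 listed, 6 had a probe set with a single symbol, and 5 of these passed the filter. Those 5, Gbp8, Ifi47, Gm4951, Mx1 and Mx2, had a negative difference between SV129 and the mean of the other strains. The share of all probe sets with a negative difference was not counted. Mx1 (-0.23) and Mx2 (-0.31) are neither GBPs nor IRGs, and both averaged 6.16, near the filter level of 6.13. On 1 of the 5, Gm4951, all SV129 arrays lay below the others, as on 3.3% of all probe sets. The sixth with a probe set, Irgc1, did not pass the filter and went the other way, at 5.44 ± 0.31 in SV129, 4.57 ± 0.16 in BL6 and 4.34 ± 0.08 in FVB/N, with all SV129 arrays above the others (SD, n = 3 each). Gm4951, an IRG gene, was at 4.99 ± 0.28 in SV129, 8.14 ± 0.07 in BL6 and 6.68 ± 0.18 in FVB/N (SD, n = 3 each). Ifi47, another IRG, was at 10.15 ± 0.47 in SV129, 11.18 ± 0.21 in BL6 and 10.92 ± 0.74 in FVB/N, and these ranges overlapped (SD, n = 3 each). Over the 5 the median difference was -0.61, and over 18 other genes induced by interferon gamma -0.32, with 12 of the 18 below 0. For BL6 against FVB/N, where 1.52% of all probe sets were higher in BL6, Gm4951 was 2.75-fold higher in BL6 (1.46 ± 0.239, SE, limma, adjusted p = 0.0142). Among the other induced genes Tap1, a peptide transporter of antigen presentation, was 1.80-fold higher in BL6 (0.85 ± 0.169, SE, limma, adjusted p = 0.0386), and Fcgr1, an antibody receptor of phagocytes, 2.21-fold higher (1.14 ± 0.232, SE, limma, adjusted p = 0.0416).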

How the data were processed

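Per the labels' protocols, RNA of the whole right lung was purified on silica columns and labelled with biotin. The authors deposited a linear intensity signal for each probe set on each array. Which software computed it is not given in the sources used. The values show that the authors scaled each array to a mean signal of 500 over the probe sets left after trimming 2% at either end. Another 12 arrays named in the design text were not analysed here.

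Groups came from the titles, pressure and exposure from the descriptions. Signals were taken as log2(signal + 16) and quantile normalized; 64 controls and the dimmest 40% by mean were left out. limma 3.58.1 in R 4.3.3 (lmFit, eBayes with trend) fitted strain plus condition (5 residual degrees of freedom), or 6 groups (3), in which the lone normoxic array of a strain was assumed to vary like the hypoxic pairs. Calls are at a Benjamini-Hochberg adjusted p below 0.05. The models were tested on simulated data.

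A gene on a list stands for its brightest probe set; all probe sets of the members are given. Named list genes were those past the threshold plus up to 4 of the brightest per list, and further values shown were chosen after they were seen. The members and lists were chosen with earlier results of these data known. Array numbers were checked as pairs: the difference of array 2 from the other hypoxic array correlated between strains by -0.026 to -0.188, so they were not used as pairs.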

Additional observations from a re-analysis of the deposited data

How the results depend on the processing

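Settings varied were normalization, pseudocount, filter, eBayes options, array weights, the arrays used (without each single one, and without both that carried kidney transcripts), the array number as a block, other models and 1 value per gene. The count of members called for hypoxia over strains, 1, became 2 with array weights, 0 without both arrays with kidney transcripts, 0 with 1 mean value per gene (fewer features) and 0 to 1 without single arrays. With the replicate block of array numbers as a random term it became 4, adding the dimmer Gbp6 probe set, Irgm2 and the _a_at probe set of Iigp1, at a block correlation of -0.24; these arrays share only a number. The fixed replicate block left the BL6 against FVB/N count at 0. That count was 3 with array weights and 0 to 2 without single arrays. Gbp2b is counted here, though it was left out of this contrast above. The 3 with array weights were Gbp2b and both Gbp6 probe sets. The count for hypoxia in FVB/N, 3, was 5 with the 60% filter, 0 without the trend, 5 with array weights and 0 to 5 without single arrays: 0 without hypoxic FVB/N array 2 or 6 and 5 without hypoxic SV129 array 2 or 5. Gbp2 on its _at probe set also lost its call there without hypoxic BL6 array 2 (adjusted p = 0.0729) or 5 (0.0689). In SV129, in BL6 and for the interaction the count stayed 0 in every setting run, as did that of the interferon lists in the 2 run.

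The Gbp2b difference between SV129 and the other strains was 5.44 with a pseudocount of 1 and 3.74 with 64, and 4.62 to 4.88 without single arrays; with the 60% filter Gbp2b was not tested, so the count of probe sets with SV129 above was 0, against 1 without any single array. The count with SV129 below, added after the data were seen, was 3 to 8 without single arrays, 5 without hypoxic SV129 array 5, and 8 without the normoxic array of FVB/N, as also without both kidney-bearing arrays.

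Signs turned only where no test passed, and the cause was not tested. For hypoxia over strains, Igtp was 0.10 with median centring, 0.016 with the authors' scaling and -0.20 to 0.13 without single arrays, and Iigp1 on its _at probe set was 0.060 with median centring and -0.22 to 0.17 without single arrays. For BL6 minus FVB/N, Gbp2 on its _at probe set was -0.031 with median centring, -0.16 with array weights, -0.25 without both arrays with kidney transcripts, -0.21 on the hypoxic arrays alone and -0.21 to 0.17 without single arrays. There Gbp2 on its _x_at probe set was -0.12 on the hypoxic arrays alone and -0.070 to 0.31 without single arrays. Gbp7 on its brighter probe set was -0.14 with array weights, -0.22 without both arrays with kidney transcripts, -0.31 on the hypoxic arrays alone and -0.30 to 0.25 without single arrays, and Irgm2 was -0.000294 without both arrays with kidney transcripts.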

Other observations

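Some interferon-induced genes outside the GTPase families also differed between SV129 and the other strains; these values are descriptions with no test. Xaf1, an interferon-induced gene of the apoptosis pathway, was at 7.52 ± 0.32 in SV129, 10.78 ± 0.34 in BL6 and 10.47 ± 0.42 in FVB/N (SD, n = 3 each). Psmb9, a subunit of the immunoproteasome, was at 10.36 ± 0.43 in SV129, 11.20 ± 0.27 in BL6 and 11.19 ± 0.47 in FVB/N (SD, n = 3 each), with all SV129 arrays below the others. Socs3, an inhibitor of cytokine signalling, and Irf2, a factor that represses interferon targets, lay 0.89 and 0.59 above the mean of the other strains in SV129, without overlap. All SV129 arrays lay above the others on 2 of 13 signalling genes, against 4.13% of all probe sets. They lay below the others on 3 of 18 other induced genes, Nampt (-0.77) among them, against 3.3% of all probe sets. Marco, a scavenger receptor of alveolar macrophages, was at 9.78 ± 0.05 in SV129, 7.51 ± 0.53 in BL6 and 5.00 ± 0.96 in FVB/N (SD, n = 3 each).

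In FVB/N the interferon-induced aminopeptidase gene Lap3 fell 6.40-fold in hypoxia (log2 change -2.68 ± 0.401, SE, limma, adjusted p = 0.027), the single fall among the 18 other induced genes, and this change too rests on the normoxic array that carried kidney transcripts.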
